A study of Drosophila melanogaster with 6 samples.

Results

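The odorant receptor (Or) and gustatory receptor (Gr) genes of Drosophila melanogaster were followed in RNA from testes in which germ cells had been depleted of a factor of mRNA 3' end formation. The genes were chosen by name, as every symbol made of Or or Gr followed by a number, which gave 120 of the 17807 genes in the count files, 60 of each family, with 1 Or pseudogene, Or98P. A test was made for the 60 of them (28 Or and 32 Gr) that reached 10 counts in at least 2 libraries. Orco, the co-receptor of the Or family, carries no number in its symbol and is described with the partner genes.

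Or proteins are receptors of olfactory neurons in the antenna and the maxillary palp, where each type of neuron usually expresses one or a few of them together with Orco, and the complex is a cation channel opened by odorants. Gr proteins are a related family that is expressed mainly in taste neurons, where they detect sugars, bitter compounds and pheromones, and a few of them detect carbon dioxide, warmth or light. Both families are best known from sense organs rather than from gonads, although in the mosquito Anopheles gambiae Orco and odorant receptors have been described in sperm.

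Polyadenylated RNA was sequenced from whole testes of 3 genotypes. In cbc knockdown (2 libraries) the bamGal4 driver expressed a hairpin against crowded by cid (cbc, stock BL 77426), the fly homologue of Clp1. In Pcf11 knockdown (2 libraries) the same driver expressed a hairpin against Pcf11 (stock VDRC 103710). The control (2 libraries) carried bamGal4 with no hairpin, so all 3 genotypes shared the driver. Cbc and Pcf11 belong to cleavage factor II, which takes part in cutting nascent transcripts at their 3' end and in termination. The driver acts in the germ line as spermatogonia become spermatocytes, whereas the RNA came from the whole organ. Each library held 150 pairs of testes, from crosses kept for 3 days at 25 °C whose progeny were then held at 29 °C. The age of the animals is not in the labels, and they do not say if the libraries of 1 genotype are separate cultures, so the p-values below rest on a spread that could be technical.

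Per-gene counts were analysed for both cbc libraries, Pcf11 library 2 and both controls, and splice junction reads for Pcf11 library 1. The cbc libraries had 18954932 and 20510200 reads assigned to genes, Pcf11 library 2 had 79053532, and the controls had 76132580 and 73600622. A floor of 3 reads was worth 0.136 and 0.128 counts per 1000000 reads (CPM) in the cbc libraries and between 0.0409 and 0.0476 CPM in the other 3, so weak genes were measured more coarsely in the cbc libraries. Library titles followed 2 naming styles, and style and depth both went with genotype wherever cbc libraries were compared with the others, so in those comparisons genotype and a batch effect cannot be told apart. The targeted genes were lower in their own knockdown. The cbc transcript was at 4.04 and 3.20 CPM in cbc knockdown, against 54.7 ± 3.13 CPM in control (SD, n = 2), and the Pcf11 transcript was at 24.2 CPM in Pcf11 library 2, against 52.3 ± 3.39 CPM in control (SD, n = 2). Markers of spermatocytes and spermatids were present in every library. The summed level of 6 spermatid markers was 1810 and 1740 CPM in cbc knockdown, 5530 CPM in Pcf11 knockdown, and 5490 and 4720 CPM in control. In such bulk samples, fewer cells of a type and less RNA per cell cannot be told apart.

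Most receptor genes were weak in control testes, and the total came from a few of them. All 120 genes together reached 58.5 CPM in each control library. Of this, Gr64f and Gr32a made up all but 31.4 and 31.9 CPM. In cbc knockdown the 120 genes summed to 141 and 159 CPM, and to 127 and 146 CPM without Gr64f and Gr32a. In Pcf11 library 2 they summed to 73.7 CPM, and to 62.4 CPM without these genes. The Or family alone stood at 66.1 and 76.5 CPM in cbc knockdown, 36.8 CPM in Pcf11 knockdown, and 15.1 and 16 CPM in control. The Gr family stood at 74.7 and 82.8 CPM in cbc knockdown, 36.9 CPM in Pcf11 knockdown, and 43.4 and 42.5 CPM in control. The number of receptor genes at 1 CPM or more was 35 and 39 in cbc knockdown, 16 in Pcf11 knockdown, and 11 in each control.

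The 60 genes without a test ranged from no count to 19 counts in a library. No count in any library was recorded for 8 genes, and for 6 of these the annotation places nearly all exon bases under another receptor gene on the same strand. Gr64b and Gr64c have identical exons, as do Or10a and Gr10a, and Gr64d shares 97.3% of its exon bases with Gr64e. The read counter leaves out reads that overlap more than 1 gene, so these counts of 0 do not measure expression. Splice junction reads of Pcf11 library 1, which do not pass through the counter, gave 16 reads on introns shared by Gr64b and Gr64c, 7 on introns of Gr64d and 7 on introns shared by Or10a and Gr10a. Only Gr9a and Or85d, an odorant receptor of the maxillary palp, had no count in any of the 5 libraries and no shared exon, and neither had an intron read. Close to the threshold, Gr85a, Gr8a and Or33b were kept with 10 counts in their second-highest library, and Gr39a, Gr94a, Gr98b, Or30a, Or35a and Or47a were left out with 9. In addition, 14 of the 60 tested genes would not have passed on the Pcf11 and control libraries alone, as fewer than 2 of these 3 reached 10 counts. For these 14 a high level in cbc knockdown was part of the choice, so those named below have their values in cbc knockdown described without a p-value.

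Per kilobase of exon, the highest levels in control were those of Gr64f at 10.5 CPM, Gr32a at 7.19 CPM, Gr63a at 2.43 CPM, Or43b at 2.03 CPM, Gr39b at 1.67 CPM, Or56a at 1.41 CPM, Gr59f at 1.37 CPM and Or94a at 1.33 CPM, while the median of the 60 tested genes was 0.182 CPM. From Or43b to Or94a neighbours in this order did not differ beyond the SD over the control libraries of one of them, the widest being Gr39b with 2.22 and 1.49 CPM. The order differed in cbc knockdown, where Gr32a led with 7.17 CPM per kilobase and Or94a, Or23a, Gr63a and Or46a followed at 6.59, 5.74, 5.73 and 5.11 CPM per kilobase. In the Pcf11 library the first 4 were Or43b, Or46a, Gr32a and Or23a, at 5.28, 4.29, 4.26 and 4.13 CPM per kilobase. The plot of levels by library shows each of the 24 genes named here, with cbc knockdown to the right of control for most of them.

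**Figure D1:**
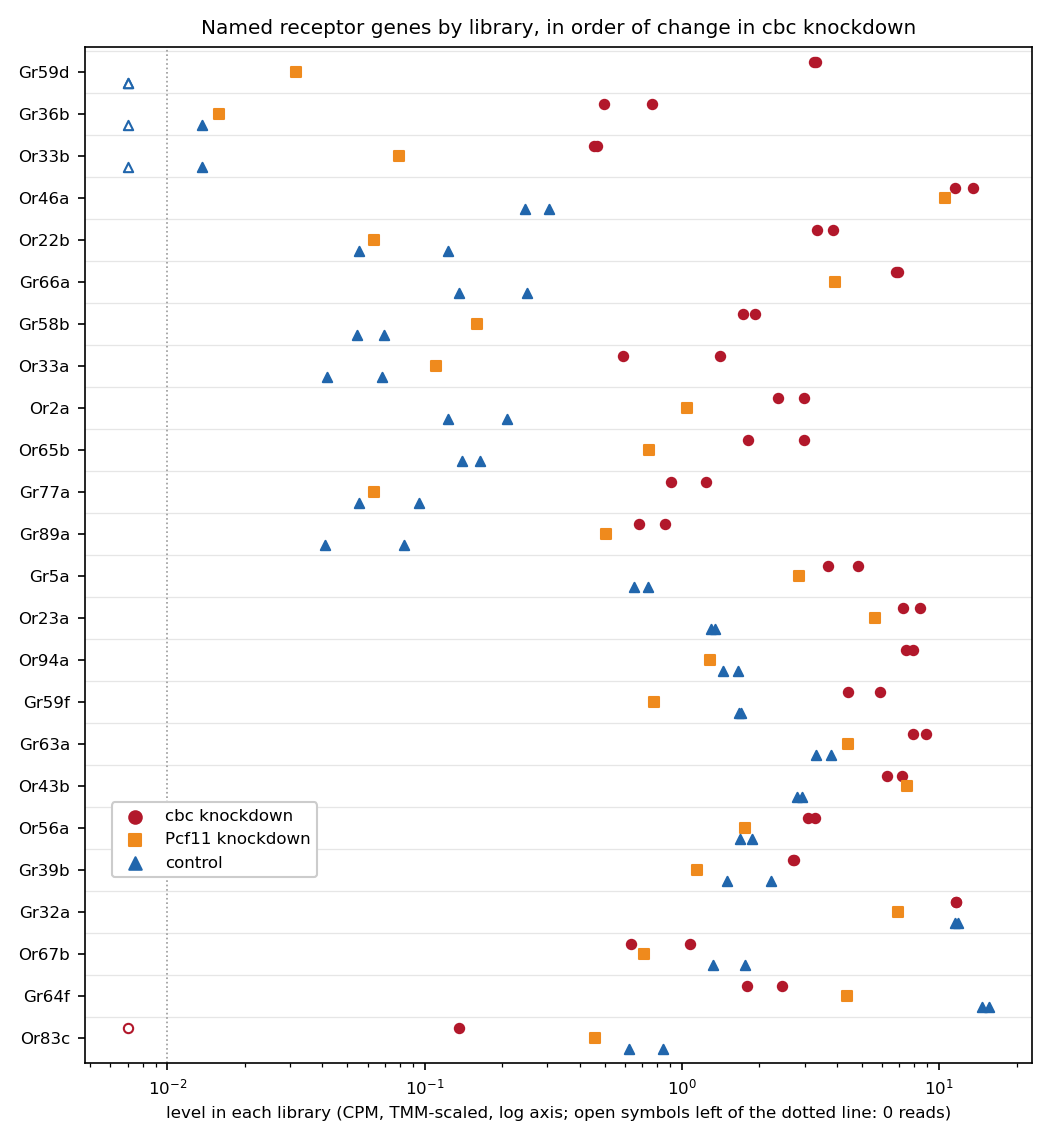
Levels of the 24 named receptor genes in each library, in TMM-scaled CPM on a log axis, with cbc knockdown (circles, 2 libraries), Pcf11 knockdown (squares, 1 library) and control (triangles, 2 libraries) on separate lines within each row. Rows run from the largest rise in cbc knockdown (Gr59d) to the largest fall (Or83c), and open symbols mark libraries with 0 reads.

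The first comparison asked how the receptor genes differed between cbc knockdown and control. Of the 60 tested genes, 48 rose, 3 fell and 9 did not pass the test at an adjusted p of 0.05 (edgeR quasi-likelihood test, Benjamini-Hochberg over all 13960 genes). Over all genes tested, 36.3% rose and 37.7% fell in the same comparison. The median log2 fold change was 2.14 over the receptor genes and -0.02 over all genes. Without the 14 genes kept through their cbc counts, 35 of 46 rose and 3 fell. By family, 24 of 28 Or genes rose and 2 fell, and 24 of 32 Gr genes rose and 1 fell.

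Over all genes tested, weak genes rose more often than strong ones in this comparison, and most receptor genes were weak. Level here is the control mean, which also enters the fold change. Among genes with a control mean under 1 CPM, 42 of 49 receptor genes (85.7%) rose and 1 fell, against 57.1% of all 2477 such genes that rose and 6.94% that fell. The median log2 fold change at this level was 2.30 over the receptor genes and 1.32 over all genes. Among genes at 1 CPM or more, 6 of 11 receptor genes rose and 2 fell, against 31.9% and 44.4% of all 11483 such genes. To set aside genes that had been kept only through their cbc counts, the 40 receptor genes with at least 10 counts in both controls were counted separately, and 30 of them rose and 3 fell. Under 1 CPM, 24 of 29 receptor genes of that kind (82.8%) rose, against 48.9% of 1910 genes. The plot of shares called shows both levels side by side.

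**Figure D2:**
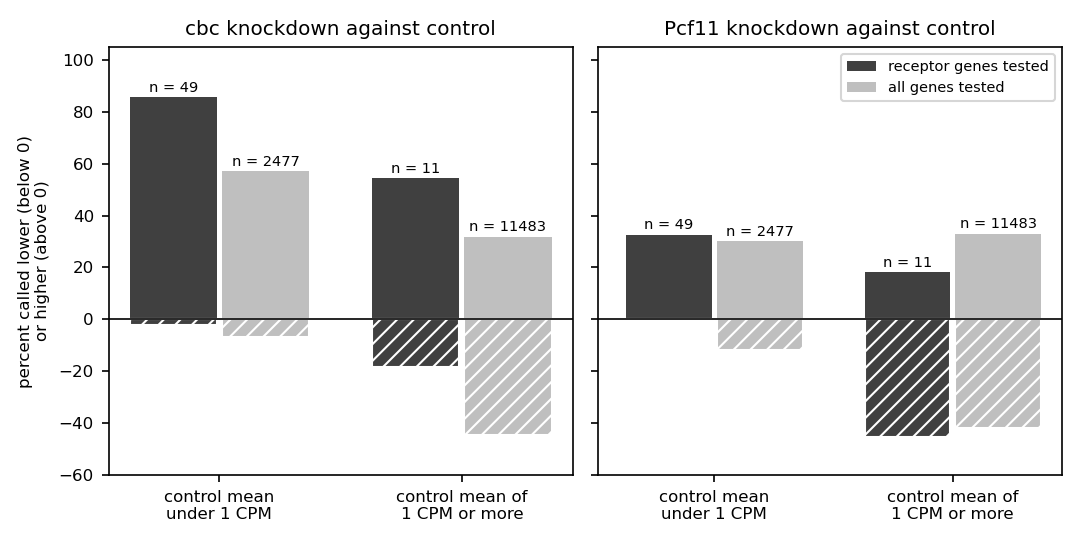
Percent of tested genes called higher (above 0) or lower (hatched, below 0) at an adjusted p of 0.05, for receptor genes (dark) and all genes tested (light), split by the control mean at 1 CPM, with the number of genes above each bar. In cbc knockdown 85.7% of receptor genes under 1 CPM were called higher, against 57.1% of all genes, and in Pcf11 knockdown the shares were 32.7% and 30.3%.

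The comparison of Pcf11 knockdown with control rests on 1 knockdown library, taken to have the spread of the cbc and control libraries. Here 18 of the 60 receptor genes rose (9 Or and 9 Gr) and 5 fell (1 Or and 4 Gr). Of all genes tested, 32.6% rose and 36.4% fell. The 18 include Gr59d, which had 2 counts in the Pcf11 library and none in control. The median log2 fold change was 0.70 over the receptor genes and -0.06 over all genes. Under 1 CPM in control, 16 of 49 receptor genes (32.7%) rose and none fell, against 30.3% and 11.8% of all such genes. With this filter the share that rose was near the background. The median log2 fold change of these weak genes was 0.82 over the receptor genes and 0.34 over all genes. The 49 include genes kept through their cbc counts. Among genes under 1 CPM with at least 10 counts in both controls, 12 of 29 receptor genes (41.4%) rose and none fell. Of all 1910 such genes, 27.4% rose and 15.2% fell, so the comparison with the background depended on the filter. At 1 CPM or more, 2 of 11 rose and 5 fell, against 33.1% and 41.7%.

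Set directly against the Pcf11 library, cbc knockdown had 41 receptor genes higher and 2 lower of 60, against 42.2% and 29.7% of all genes tested. The median log2 difference was 1.66 over the receptor genes and 0.27 over all genes. Among genes under 1 CPM in control, 34 of 49 receptor genes (69.4%) were higher and 1 was lower, against 45.5% and 7.23% of all such genes, with medians of 1.81 over the receptor genes and 1.01 over all genes. These counts include the 14 genes kept through their cbc counts. Of the 40 receptor genes with at least 10 counts in both controls, 26 were higher and 2 lower. Under 1 CPM, 19 of 29 receptor genes of that kind (65.5%) were higher, against 42.3% of 1910 genes. Both knockdowns were compared with the same 2 controls, so their changes relative to control are not independent of each other. The values of each are given side by side for the genes that follow. The plot of fold changes gives all 60 genes.

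**Figure D3:**
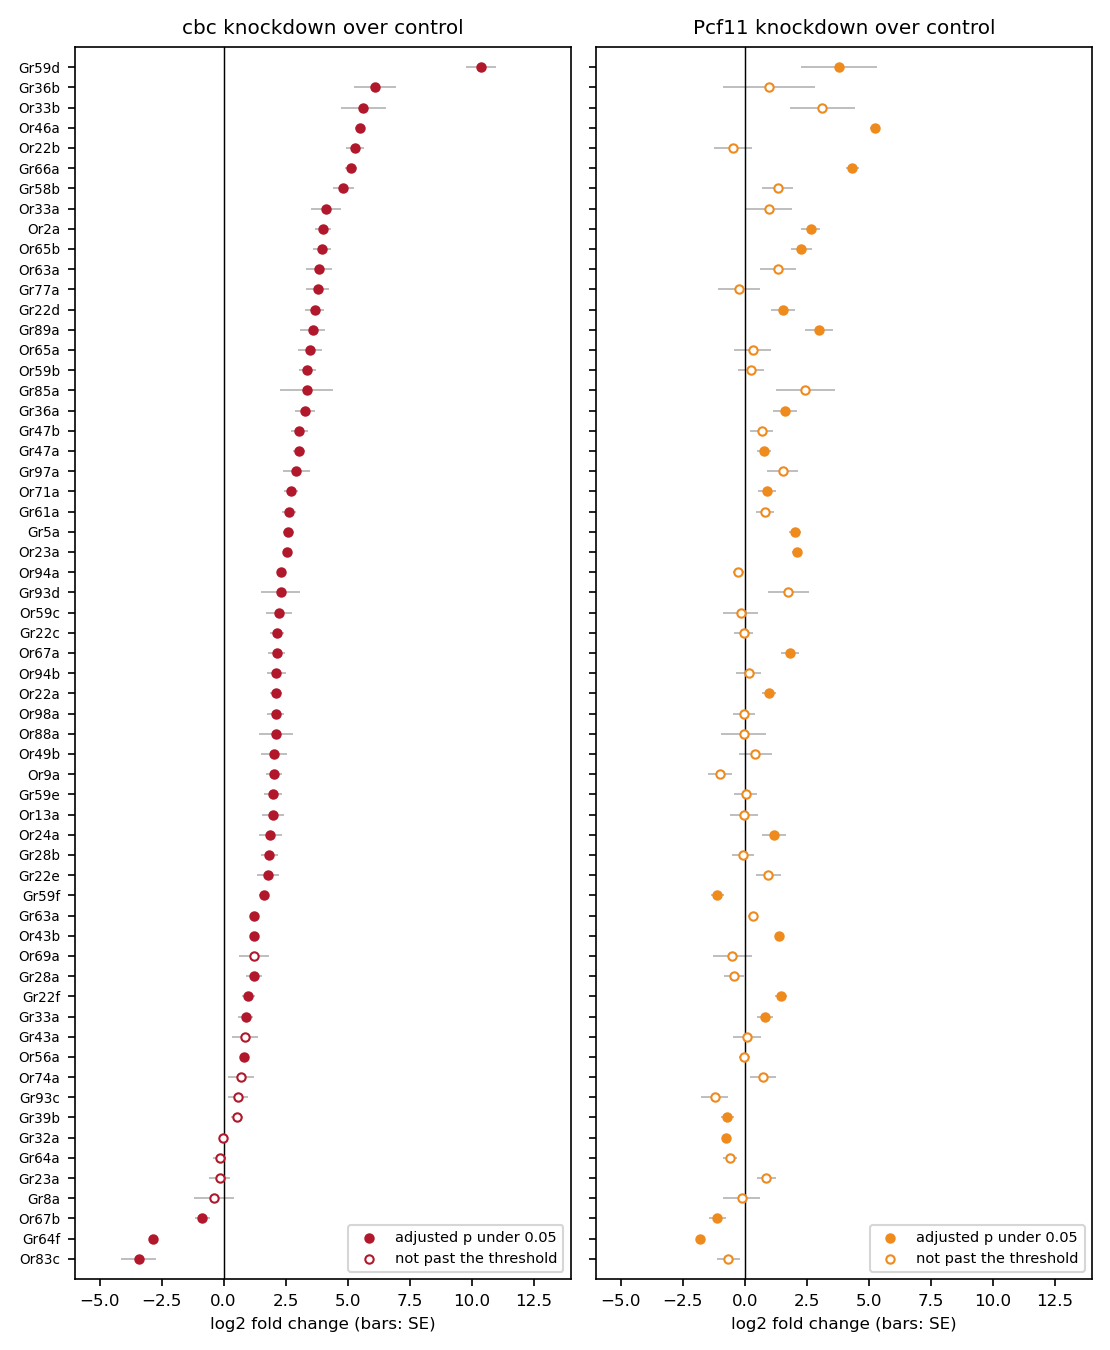
Log2 fold changes over control of the 60 tested receptor genes in cbc knockdown (left, 2 libraries) and in Pcf11 knockdown (right, 1 library). Genes are in the same order in both panels. Bars are the SE derived from the test statistic, and filled points mark an adjusted p under 0.05. Gr59d had no read in either control, so its points and bars do not measure a fold. In cbc knockdown 48 genes were called higher and 3 lower, and in Pcf11 knockdown 18 were called higher and 5 lower.

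Among taste receptors, the sugar receptors did not move together. Of 9 known sugar and fructose receptor genes, 5 could be tested, and in cbc knockdown Gr5a and Gr61a rose, Gr64f fell, and Gr64a and Gr43a did not pass the test. Gr64f, which acts with other sugar receptors in the detection of many sugars (3L:4035799-4037575), had the highest control level of all receptor genes. It stood at 2.45 and 1.79 CPM in cbc knockdown, 4.38 CPM in the Pcf11 library, and 15.6 and 14.7 CPM in control. Every knockdown library was below both controls, and the cbc libraries were below the Pcf11 library. The log2 fold change was -2.84 ± 0.17 (SE) in cbc knockdown and -1.79 ± 0.18 in Pcf11 knockdown, with adjusted p-values of 2.98e-08 and 3.38e-06 by edgeR. The cbc libraries were also lower than the Pcf11 library, by a log2 difference of -1.05 ± 0.20 (edgeR adjusted p = 0.000611).

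The other measured gene of this locus, Gr64a, lies a few kilobases upstream of Gr64f and moved less. It had 1.09 and 1.28 CPM in cbc knockdown, 0.873 CPM in the Pcf11 library, and 1.36 and 1.29 CPM in control. Its log2 fold changes of -0.16 ± 0.25 and -0.60 ± 0.28 did not pass the test (edgeR adjusted p = 0.569 and 0.0726).

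Gr5a, the trehalose receptor of sweet-sensing neurons (X:5680617-5682488), went the other way. It had 3.68 and 4.82 CPM in cbc knockdown, 2.84 CPM in the Pcf11 library, and 0.652 and 0.736 CPM in control, with no overlap between knockdown and control libraries. Gr5a rose by a log2 fold change of 2.61 ± 0.22 in cbc knockdown and 2.03 ± 0.24 in Pcf11 knockdown (edgeR adjusted p = 5.99e-07 and 1.47e-05). The direct difference of 0.58 ± 0.24 between cbc and Pcf11 libraries (edgeR adjusted p = 0.043) became 0.38 without cbc library 2 and no longer passed. Gr61a, a glucose receptor, had 2.31 and 2.17 CPM in cbc knockdown, 0.635 CPM in the Pcf11 library, and 0.319 and 0.395 CPM in control. Its rise passed in cbc knockdown (log2 fold change 2.64 ± 0.28, edgeR adjusted p = 4.61e-06) and not in Pcf11 knockdown (0.82 ± 0.35, edgeR adjusted p = 0.0524), and the knockdowns differed by 1.82 ± 0.33 (edgeR adjusted p = 0.000435). Gr43a, an internal fructose sensor of the brain, was at 0.384 CPM or less in every library.

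The receptors shared by many bitter neurons of the labellum are Gr32a, Gr33a, Gr39a, Gr66a and Gr89a, of which all but Gr39a were tested. In each knockdown Gr33a, Gr66a and Gr89a rose, whereas Gr32a fell in Pcf11 knockdown and did not pass the test in cbc knockdown. Gr66a, the usual marker of bitter neurons (3L:8305336-8306980), had 6.90 and 6.78 CPM in cbc knockdown, 3.95 CPM in the Pcf11 library, and 0.25 and 0.136 CPM in control. The lowest knockdown value was far above the highest control value. Its log2 fold changes were 5.13 ± 0.25 and 4.34 ± 0.27 (edgeR adjusted p = 7.16e-09 in cbc knockdown and 1.39e-07 in Pcf11 knockdown). Gr89a (3R:16497817-16498959) had 19 and 16 counts in cbc knockdown, 32 in the Pcf11 library, and 6 and 3 in control, despite the greater depth of the control libraries. Its log2 fold change was 3.59 ± 0.52 in cbc knockdown, for a gene kept through its cbc counts, and 2.99 ± 0.55 in Pcf11 knockdown (edgeR adjusted p = 0.000485 in Pcf11 knockdown). Gr33a, which with Gr32a also takes part in the detection of male pheromones, changed less, by 0.89 ± 0.31 in cbc knockdown and 0.82 ± 0.33 in Pcf11 knockdown (edgeR adjusted p = 0.0226 and 0.0429).

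Gr32a (2L:11114014-11115823) was the receptor gene with the steadiest level between cbc knockdown and control. It had 11.6 CPM in each cbc library, 6.92 CPM in the Pcf11 library, and 11.5 and 11.8 CPM in control. The log2 fold change was -0.01 ± 0.12 in cbc knockdown (edgeR adjusted p = 0.967) and -0.76 ± 0.14 in Pcf11 knockdown (edgeR adjusted p = 0.000495). When reads of both strands were counted together, Gr32a was higher instead in both knockdowns, by 0.71 and 1.46 on the log2 scale. The gene CG6230 overlaps Gr32a on the opposite strand. Reads antisense to Gr32a averaged 10.5 CPM in cbc knockdown, 32.2 CPM in the Pcf11 library and 2.73 CPM in control. CG6230 itself was at 264 and 279 CPM in cbc knockdown, 1240 CPM in the Pcf11 library, and 964 and 961 CPM in control. Whether the antisense reads came from CG6230 transcripts was not tested.

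Gr63a, which forms the carbon dioxide receptor with Gr21a, had 7.94 and 8.91 CPM in cbc knockdown, 4.43 CPM in the Pcf11 library, and 3.33 and 3.80 CPM in control. Gr63a rose in cbc knockdown by 1.24 ± 0.15 on the log2 scale (edgeR adjusted p = 1.42e-05) and not past the threshold in Pcf11 knockdown, with 0.31 ± 0.18 (edgeR adjusted p = 0.138). Its partner Gr21a was too weak to be tested.

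Gr59f (2R:23542510-23543885) was called in opposite directions. It had 4.40 and 5.88 CPM in cbc knockdown, 0.777 CPM in the Pcf11 library, and 1.67 and 1.69 CPM in control, so that the cbc libraries lay above both controls and the Pcf11 library below them. The log2 fold change was 1.62 ± 0.19 in cbc knockdown (edgeR adjusted p = 1.32e-05) and -1.11 ± 0.27 in Pcf11 knockdown (edgeR adjusted p = 0.00316). With reads of both strands counted together, the value in Pcf11 knockdown was -0.35 and did not pass. The difference between the knockdowns, 2.72 ± 0.27, passed its own test (edgeR adjusted p = 4.45e-06). Gr39b had 2.72 and 2.69 CPM in cbc knockdown, 1.14 CPM in the Pcf11 library, and 2.22 and 1.49 CPM in control. Its fall in Pcf11 knockdown (-0.70 ± 0.28, edgeR adjusted p = 0.0459) was lost without control library 1 (-0.38) and in some other settings. Its level in cbc knockdown differed from control by 0.55 ± 0.23 on the log2 scale, which did not pass (edgeR adjusted p = 0.0511) but passed without control library 1 (0.86).

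The largest rise in cbc knockdown was that of Gr59d (2R:23103941-23105169). It had 72 and 78 counts in cbc knockdown, 2 in the Pcf11 library and none in either control. Gr59d, Gr36b, Gr58b and Gr77a are all among the 14 genes kept through their cbc counts. Against a floor of 3 counts over both controls, Gr59d was at least 160-fold higher in cbc knockdown, and it was 104-fold higher than in the Pcf11 library, with a 95% counting interval of 28.3 to 866. No fold is given for the Pcf11 library over control, where the counts were at or under the floor, and that call (edgeR adjusted p = 0.0478) passed in 2 of the 13 other settings. Gr36b had 11 and 18 counts in cbc knockdown, 1 in the Pcf11 library, and 0 and 1 in control. This was a 92.7-fold difference between cbc knockdown and control with a wide counting interval of 15.4 to 3790.

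Gr58b and Gr77a were also higher in the cbc libraries. Gr58b had 1.72 and 1.92 CPM in cbc knockdown, 0.159 CPM in the Pcf11 library, and 0.0694 and 0.0545 CPM in control, with a log2 fold change of 4.83 ± 0.41 in cbc knockdown. Gr77a had 0.908 and 1.24 CPM in cbc knockdown, 0.0635 CPM in the Pcf11 library, and 0.0555 and 0.0954 CPM in control. Its log2 fold change in cbc knockdown was 3.79 ± 0.48, and the Pcf11 library lay between the controls. For Gr36b, Gr58b and Gr77a the cbc libraries were higher than the Pcf11 library by 5.12 ± 1.0, 3.50 ± 0.47 and 4.03 ± 0.65 on the log2 scale.

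Among odorant receptors, genes of each class of sensillum examined rose in cbc knockdown. Of 22 genes listed here for basiconic sensilla of the antenna, which respond mostly to food odours, 11 were tested. All 11 rose in cbc knockdown, whereas 3 of them rose in Pcf11 knockdown (Or22a, Or43b and Or67a). The list leaves out Or67b, which fell in cbc knockdown, and Or69a, which did not pass there, so counts for basiconic sensilla hold for this list only. All 3 tested genes of the maxillary palp (Or46a, Or59c and Or71a) and all 3 of the pheromone-responsive trichoid sensilla (Or65a, Or65b and Or88a) rose in cbc knockdown. In Pcf11 knockdown Or46a, Or71a and Or65b rose. Of the genes of intermediate sensilla, Or2a and Or23a rose in both knockdowns and Or83c fell in cbc knockdown. Of 25 genes known from larval olfactory neurons, 10 were tested, of which 8 rose and 1 fell (Or67b) in cbc knockdown, and 2 rose and 1 fell (Or67b) in Pcf11 knockdown. Some of these genes are among the 14 kept through their cbc counts. Without them, the genes that rose in cbc knockdown were 8 of 8 of the basiconic sensilla, 1 of 1 of the trichoid sensilla (Or65b) and 5 of 7 of the larval neurons. Each count in cbc knockdown is to be read against the 57.1% of all genes under 1 CPM and the 31.9% of all genes at 1 CPM or more that rose, and each count in Pcf11 knockdown against 30.3% and 33.1%. For counts without the 14 genes a closer share is that of genes under 1 CPM with at least 10 counts in both controls. Of these, 48.9% rose in cbc knockdown and 27.4% in Pcf11 knockdown.

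Or46a, a receptor of the maxillary palp (2R:10139264-10142074), changed most among the well-counted odorant receptors. It had 11.5 and 13.5 CPM in cbc knockdown, 10.5 CPM in the Pcf11 library, and 0.305 and 0.245 CPM in control. In reads this was 254, 317 and 663 in the knockdown libraries and 22 and 18 in the controls. The log2 fold changes of Or46a were 5.50 ± 0.20 in cbc knockdown and 5.24 ± 0.21 in Pcf11 knockdown (edgeR adjusted p = 8.17e-10 and 6.72e-09), and the direct difference of 0.25 ± 0.17 did not pass the test (edgeR adjusted p = 0.197).

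Or2a, Or65b and Or23a also rose in both knockdowns. Or2a, a receptor of larval neurons and of intermediate sensilla of the adult antenna, had 2.36 and 2.98 CPM in cbc knockdown, 1.05 CPM in the Pcf11 library, and 0.208 and 0.123 CPM in control. Its log2 fold changes were 4.0 ± 0.33 and 2.65 ± 0.38 (edgeR adjusted p = 5.19e-07 in cbc knockdown and 6.77e-05 in Pcf11 knockdown). Or65b, of a pheromone-responsive trichoid neuron, had 1.81 and 2.98 CPM in cbc knockdown, 0.746 CPM in the Pcf11 library, and 0.139 and 0.164 CPM in control. It rose by 3.97 ± 0.36 in cbc knockdown and 2.28 ± 0.43 in Pcf11 knockdown (edgeR adjusted p = 1.25e-06 and 0.000582). For each of these genes the order was cbc knockdown, Pcf11 knockdown, control, with no overlap between groups.

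Or23a, a receptor of intermediate sensilla, had 7.21 and 8.44 CPM in cbc knockdown, 5.63 CPM in the Pcf11 library, and 1.30 and 1.34 CPM in control. It rose by 2.57 ± 0.17 in cbc knockdown and 2.09 ± 0.18 in Pcf11 knockdown on the log2 scale (edgeR adjusted p = 7.18e-08 and 1.42e-06). The direct difference of 0.48 ± 0.18 between the knockdowns (edgeR adjusted p = 0.0352) was 0.36 and no longer passed without cbc library 2. Or43b, a receptor of fruit odours in basiconic sensilla, had 7.17 and 6.27 CPM in cbc knockdown, 7.46 CPM in the Pcf11 library, and 2.93 and 2.81 CPM in control. It rose by 1.23 ± 0.15 and 1.38 ± 0.17 (edgeR adjusted p = 1.66e-05 in cbc knockdown and 1.74e-05 in Pcf11 knockdown). Or43b overlaps Cul1 on the opposite strand, and its antisense reads averaged 10.1 CPM in cbc knockdown and 2.38 CPM in control. Cul1 itself was at 201 and 205 CPM in cbc knockdown, and 247 and 238 CPM in control.

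Other odorant receptors were higher in cbc knockdown, with the Pcf11 library near control. Or22b, one of the 14 genes kept through their cbc counts, had 3.36 and 3.88 CPM in cbc knockdown, 0.0635 CPM in the Pcf11 library, and 0.0555 and 0.123 CPM in control. Its log2 fold change in cbc knockdown was 5.30 ± 0.36, the difference from the Pcf11 library was 5.78 ± 0.51, and the Pcf11 library lay between the controls. Or94a, an odorant receptor of larval neurons, had 7.44 and 7.89 CPM in cbc knockdown, 1.28 CPM in the Pcf11 library, and 1.44 and 1.65 CPM in control. It rose by 2.31 ± 0.17 in cbc knockdown (edgeR adjusted p = 1.87e-07) and differed from control by -0.27 ± 0.22 in Pcf11 knockdown, which did not pass (edgeR adjusted p = 0.298).

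Or33a and Or33b had few reads and were kept through their cbc counts. Or33a had 13 and 33 counts in cbc knockdown, 7 in the Pcf11 library, and 3 and 5 in control, with a log2 fold change in cbc knockdown of 4.13 ± 0.59. Or33b had 10 and 11 counts in cbc knockdown, 5 in the Pcf11 library, and 0 and 1 in control, a 67.1-fold difference between cbc knockdown and control with a counting interval of 10.8 to 2780. In the Pcf11 library Or33b was 11.5-fold above control with an interval of 1.29 to 546, which did not pass (edgeR adjusted p = 0.0506) but did so without control library 2. Or56a, the geosmin receptor, had 3.09 and 3.28 CPM in cbc knockdown, 1.75 CPM in the Pcf11 library, and 1.87 and 1.68 CPM in control. Or56a rose by 0.84 ± 0.19 in cbc knockdown (edgeR adjusted p = 0.00162), and the Pcf11 library lay between the controls.

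The odorant receptors that fell were Or83c and Or67b. Or83c, the farnesol receptor, had 3 and 0 counts in cbc knockdown, 29 in the Pcf11 library, and 45 and 62 in control. It was 11.2-fold lower in cbc knockdown than in control by counts per library size, with a counting interval of 3.72 to 55.0 (edgeR adjusted p = 0.000861). Its log2 value of -3.43 ± 0.70 became -8.42 without cbc library 1, which leaves only the library with no read. The Pcf11 library was below both controls, at 0.460 CPM against 0.624 and 0.845 CPM, and did not pass the test (-0.67 ± 0.47, edgeR adjusted p = 0.217). The cbc libraries were lower than the Pcf11 library by -2.76 ± 0.83 on the log2 scale (edgeR adjusted p = 0.0107), and this became -1.73 and did not pass without cbc library 2, and -7.74 without cbc library 1.

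Or67b, a receptor of green leaf odours, had 0.635 and 1.07 CPM in cbc knockdown, 0.714 CPM in the Pcf11 library, and 1.32 and 1.76 CPM in control, with every knockdown library below both controls. It fell by 0.85 in cbc knockdown and by 1.11 in Pcf11 knockdown on the log2 scale (edgeR adjusted p = 0.0262 and 0.0116). The first of these calls was lost without cbc library 1 (-0.54) and without control library 2 (-0.63). Or67b overlaps CG3335 and Cyp40 on the opposite strand, and with reads of both strands counted together the sign in Pcf11 knockdown reversed to 0.63.

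Receptor genes often stand in tandem, and 11 of the 60 tested genes have another receptor within 2 kb upstream on the same strand. Of these, 9 rose in cbc knockdown and 1 in Pcf11 knockdown, against 36.3% and 32.6% of all genes tested, and 57.1% and 30.3% of those under 1 CPM in control. Without the genes kept through their cbc counts (Or22b, Or33b and Gr36b), 6 of 8 rose in cbc knockdown. Of all genes under 1 CPM with at least 10 counts in both controls, 48.9% rose there. Tandem neighbours did not always move alike. Or22a, the fruit-ester receptor that lies 540 bp upstream of Or22b, had 2.72 and 3.28 CPM in cbc knockdown, 1.35 CPM in the Pcf11 library, and 0.722 and 0.654 CPM in control. It therefore rose in both knockdowns (log2 fold change 2.12 ± 0.23 and 0.97 ± 0.27, edgeR adjusted p = 5.47e-06 and 0.00683), whereas Or22b was near control in the Pcf11 library. Gr28a and Gr28b rose in cbc knockdown by 1.22 ± 0.32 and 1.85 ± 0.34, and Or59b and Or59c by 3.38 ± 0.35 and 2.24 ± 0.51, with edgeR adjusted p-values between 4.09e-06 and 0.00427. Within such pairs the sequences are related, and the files do not show how many reads were lost because they matched more than 1 copy.

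The position of the genes was also compared, because cleavage factor II acts where transcripts end. An annotated gene on the same strand ended within 2 kb upstream of 29 of the 60 tested receptor genes (48.3%), against 40.3% of all tested genes with a position. An upstream gene within 2 kb at 10 CPM or more in control preceded 8 of the 48 receptor genes that rose in cbc knockdown (16.7%). It preceded 20.8% of all genes that rose, and 1 of the 9 receptor genes that did not pass. In Pcf11 knockdown it preceded 5 of the 18 receptor genes that rose (27.8%), 4 of the 37 that did not pass (10.8%) and none of the 5 that fell. The shares were 22.9% of all genes that rose and 21.9% of all genes tested. Under 1 CPM in control, it preceded 18.8% of the receptor genes that rose in Pcf11 knockdown and 9.09% of those that did not pass. For all genes under 1 CPM these shares were 21.0% and 12.5%. These counts are small, and the share among the receptor genes that rose was near that of all genes that rose.

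Of the 8 receptor genes with the largest rises in Pcf11 knockdown, 5 have the end of a gene on the same strand within 2 kb upstream. They are Or46a, Gr66a, Gr89a, Or2a and Or23a, whereas the other 3 (Gr59d, Or65b and Gr5a) have none. Gr59d is among the 8 on 2 counts in the Pcf11 library and none in control, so the size of its rise was not measured. Of all genes that rose in Pcf11 knockdown, 39.9% have such a gene, and 45.9% of those under 1 CPM in control. For Or46a it is gem, 1791 bp upstream, which had 4 counts or fewer in each library. Gr66a starts 164 bp downstream of BI-1, an inhibitor of cell death, which was at 782 and 767 CPM in cbc knockdown, 1407 CPM in the Pcf11 library, and 1046 and 1004 CPM in control. Gr89a starts 98 bp downstream of the caspase gene Decay, and Or2a 189 bp downstream of fs(1)K10. Decay rose in both knockdowns, by 0.88 ± 0.18 in cbc knockdown and 2.0 ± 0.18 in Pcf11 knockdown (edgeR adjusted p = 0.000825 and 2.01e-06), and fs(1)K10 fell by 0.76 in Pcf11 knockdown (edgeR adjusted p = 0.000249). Or23a starts 122 bp downstream of Prosbeta4R1, a proteasome subunit gene, and shares 69 exon bases with the next gene, Prosbeta4R2. Or46a overlaps the end of CG12917 by 4 exon bases, and Or71a lies within Plp, a gene of the pericentriolar material. Or23a, Or46a and Or71a were the 3 tested receptor genes (5.0%) that overlap a gene on the same strand, against 11.1% of all tested genes, and each of the 3 rose in both knockdowns.

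Gr47b starts 28 bp downstream of san, which was at 64.1 and 61.3 CPM in control, and had 1.81 and 2.0 CPM in cbc knockdown, 0.365 CPM in the Pcf11 library, and 0.167 and 0.286 CPM in control. It rose in cbc knockdown (3.06 ± 0.34, edgeR adjusted p = 7.57e-06) and did not pass in Pcf11 knockdown (0.68 ± 0.46, edgeR adjusted p = 0.204). Gr59d, with the largest rise in cbc knockdown, has its nearest upstream gene on the strand, lncRNA:CR44781, at 4807 bp. Whether reads counted for a receptor gene came from transcripts that began in the gene before it was not tested in the count libraries. The plot of fold change against upstream distance shows rises at all distances in cbc knockdown.

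**Figure D4:**
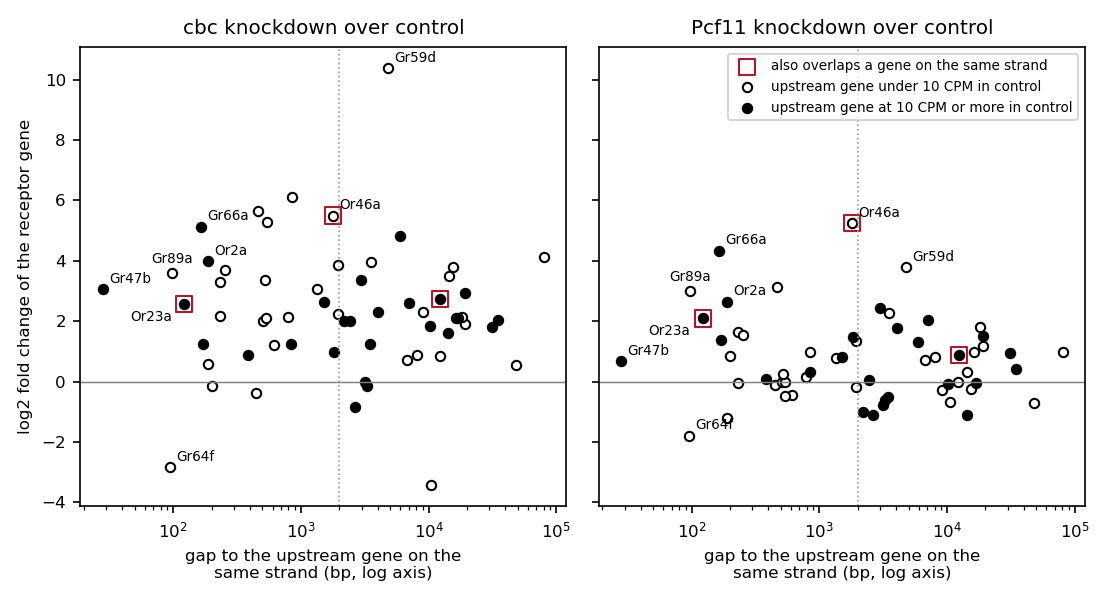
Log2 fold change over control of the 60 tested receptor genes in cbc knockdown (left) and Pcf11 knockdown (right) against the distance to the end of the nearest upstream gene on the same strand (bp, log axis), with filled points where that gene was at 10 CPM or more in control, squares around the 3 genes that also overlap a gene on the same strand, and a dotted line at 2000 bp. Rises in cbc knockdown are found on both sides of the line, while the largest rises in Pcf11 knockdown (Or46a and Gr66a) lie within it.

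Splice junction reads of Pcf11 library 1 gave a separate view of receptor transcripts in that genotype, without a control. Among 10381354 uniquely mapped junction reads, 550 fell on annotated introns of 48 of the 60 tested receptor genes, and 60 on those of 18 of the 60 untested ones, each read counted once where genes share an intron. Gr32a had 106 such reads, Gr64f had 57, Gr5a had 45, Or46a had 40 on all 4 of its annotated introns, and Or56a and Gr63a had 29 each. At least 10 such reads were found for 16 of the tested genes and at least 3 for 30, while 10 had a single read. Reads spliced from outside a gene into its body were found for 10 tested receptor genes and numbered 36. Or46a had 3 of these, from sites within the span of CG12917, against 40 on its own annotated introns. Further reads lay on other junctions inside Or46a, with 11 on the most used of them. Gr22f had 9, of which 4 came from CG17650, and Gr39b had 15 from sites that lie in no annotated gene of its strand. Gr36a had 1 from CR44394 and Or2a had 2, and no such read was seen for Gr66a or Gr89a. No junction file of the cbc or control libraries was analysed here, so these reads were not compared between groups.

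The genes that work with the receptors were examined next, from 7 lists of co-receptors, binding proteins, channels, signalling proteins, transcription factors, neuronal proteins and ciliary transport proteins. Over these lists 52 of 111 tested genes rose (46.8%) and 33 fell (29.7%) in cbc knockdown, and 33 rose (29.7%) and 49 fell (44.1%) in Pcf11 knockdown. All genes tested rose in 36.3% and fell in 37.7% of cases in cbc knockdown, and rose in 32.6% and fell in 36.4% in Pcf11 knockdown. These are the shares to set beside the count of each list below. For genes under 1 CPM in control, such as Orco, Ir8a and Ir76b, the shares that rose were 57.1% in cbc knockdown and 30.3% in Pcf11 knockdown. Lists of this size whose shares lie near these values show nothing particular. Orco, on which Or proteins depend for transport to the cilium and for channel function, had 0.817 and 1.24 CPM in cbc knockdown, 0.333 CPM in the Pcf11 library, and 0.291 and 0.259 CPM in control. It rose in cbc knockdown by 1.90 ± 0.38 on the log2 scale (edgeR adjusted p = 0.000709) and differed from control by 0.27 ± 0.47 in Pcf11 knockdown, which did not pass (edgeR adjusted p = 0.617). Its level in cbc knockdown remained below that of Or46a, Or23a, Or94a and Or43b, in CPM without correction for length.

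Among the 12 tested co-receptor and perireceptor genes, 7 rose and 2 fell in cbc knockdown, and 4 rose and 4 fell in Pcf11 knockdown. Ir76b, a co-receptor of ionotropic taste and odour receptors, had 3.31 and 2.90 CPM in cbc knockdown, 1.01 CPM in the Pcf11 library, and 0.0694 and 0.0954 CPM in control, and rose by 5.19 ± 0.33 and 3.58 ± 0.39 (edgeR adjusted p = 5.93e-08 in cbc knockdown and 7.34e-06 in Pcf11 knockdown). The related co-receptor Ir25a rose by 2.43 ± 0.16 and 1.16 ± 0.19 (edgeR adjusted p = 1.01e-07 and 0.00019), and Ir8a rose in cbc knockdown by 3.42 ± 0.57 (edgeR adjusted p = 0.000197). Snmp1, the membrane protein required for pheromone responses, fell in both knockdowns, by 1.18 in cbc knockdown and by 1.70 in Pcf11 knockdown (edgeR adjusted p = 2.86e-05 and 7.95e-06). ATP8B, a phospholipid flippase of olfactory neurons, fell by 1.41 and by 1.86 (edgeR adjusted p = 1.52e-07 in cbc knockdown and 2.67e-07 in Pcf11 knockdown).

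Odorant-binding proteins, which carry odorants in the fluid of sensilla and are also made elsewhere in the body, had counts near those shares in cbc knockdown. Of 35 tested, 13 rose and 11 fell in cbc knockdown, and 7 rose and 15 fell in Pcf11 knockdown. Obp83b rose in cbc knockdown by 3.21 ± 0.20, and Obp83g fell in Pcf11 knockdown by 2.99 (edgeR adjusted p = 4.42e-08 and 3.22e-06). Of 11 tested taste and pheromone channels, 6 rose and 5 fell in cbc knockdown, and 4 rose and 4 fell in Pcf11 knockdown. The mechanosensory channel gene nan was at 8.80 and 7.76 CPM in cbc knockdown, 1.13 CPM in the Pcf11 library, and 0.555 and 0.709 CPM in control, whereas pain, a nociceptive channel, fell by 2.03 and by 1.74 on the log2 scale (edgeR adjusted p = 1.46e-07 in cbc knockdown and 3.01e-06 in Pcf11 knockdown).

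Of 12 tested signalling genes that act downstream of sensory receptors, none rose and 7 fell in cbc knockdown, and 1 rose and 10 fell in Pcf11 knockdown. Arr1, an arrestin, was the exception in direction, with 7.08 and 7.38 CPM in cbc knockdown, 78.4 CPM in the Pcf11 library, and 47.6 and 44.5 CPM in control. It fell by 2.67 in cbc knockdown and rose by 0.77 ± 0.10 in Pcf11 knockdown (edgeR adjusted p = 1.33e-09 and 2.91e-05). Itpr, the IP3 receptor, fell by 1.62 in Pcf11 knockdown (edgeR adjusted p = 1.3e-06), where the G protein gene Galphai also fell, by 1.58 (edgeR adjusted p = 4.05e-07).

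Of 13 tested transcription factors that act in receptor choice or in the formation of sense organs, 7 rose and 3 fell in cbc knockdown, and 6 rose and 4 fell in Pcf11 knockdown. The proneural gene ato had 4.22 CPM in each cbc library, 0.444 CPM in the Pcf11 library, and 0.0833 and 0 CPM in control. It rose by 6.59 ± 0.49 in cbc knockdown and 3.35 ± 0.70 in Pcf11 knockdown (edgeR adjusted p = 2.24e-07 and 0.00112). Of 14 tested genes of ciliary transport, 11 rose and 1 fell in cbc knockdown, and 8 rose and 4 fell in Pcf11 knockdown, among them nompB (3.14 ± 0.16 in cbc knockdown) and IFT52 (2.67 ± 0.12 in cbc knockdown and 1.57 ± 0.13 in Pcf11 knockdown), with edgeR adjusted p-values of 8.96e-09, 3.62e-09 and 1.08e-06. Germ cells of the fly testis also build cilia, so this list is not specific to sensory neurons.

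Neuronal and other somatic markers were read beside the receptor genes. Of 15 neuronal genes, 8 rose and 4 fell in cbc knockdown, and 3 rose and 8 fell in Pcf11 knockdown. The pan-neuronal genes elav and nSyb fell in both knockdowns, elav by 0.91 and by 1.10 and nSyb by 1.79 and by 2.50 on the log2 scale, for cbc and Pcf11 knockdown in that order (edgeR adjusted p = 0.00391, 0.00218, 3.78e-07 and 3.54e-07), whereas the active-zone gene brp rose by 2.0 ± 0.11 and 1.05 ± 0.12 (edgeR adjusted p = 1.61e-08 and 1.45e-05). The summed level of 9 neuronal markers was 66.8 and 69.8 CPM in cbc knockdown, 37.4 CPM in the Pcf11 library, and 57.3 and 51.9 CPM in control. The 5 markers of chemosensory neurons (Orco, Ir25a, Ir8a, Ir76b and Snmp1) summed to 15.0 and 15.9 CPM in cbc knockdown, 6.74 CPM in the Pcf11 library, and 8.82 and 8.51 CPM in control. Of these 5, 4 rose and 1 fell in cbc knockdown, and 2 rose and 1 fell in Pcf11 knockdown, and none was at 0 in both controls. Markers of support cells of sensilla summed to 18.3 and 22.1 CPM in cbc knockdown and 7.84 CPM in the Pcf11 library. In control they summed to 22.3 and 22.4 CPM, and of the 4 tested, 2 rose and 1 fell in each knockdown. Haemocyte markers summed to 27.4 and 34.2 CPM in cbc knockdown, 23.7 CPM in the Pcf11 library, and 41.9 and 52.1 CPM in control. Fat body markers, which rose for all 4 tested genes in each knockdown, summed to 33.2 and 42.1 CPM in cbc knockdown, 22.9 CPM in the Pcf11 library, and 4.70 and 5.19 CPM in control. Accessory gland markers, of which 3 of 4 rose in cbc knockdown and none in Pcf11 knockdown, summed to 242 and 205 CPM in cbc knockdown, 66.2 CPM in the Pcf11 library, and 56.3 and 164 CPM in control. All 6 markers of the muscle sheath fell in both knockdowns, and they summed to 339 and 247 CPM in cbc knockdown, 195 CPM in the Pcf11 library, and 560 and 572 CPM in control. Of 6 markers of cyst and hub cells, 4 fell in cbc knockdown and 3 in Pcf11 knockdown, with sums of 107 and 94.4 CPM in cbc knockdown, 92.4 CPM in the Pcf11 library, and 192 and 193 CPM in control. The part that any other cell type had in the receptor levels was not tested.

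Receptor genes that rose in cbc knockdown were found on every large chromosome arm. On arm 2L 15 of 18 tested receptor genes rose, on 2R 12 of 13, on 3L 9 of 14, on 3R 8 of 10 and on X 4 of 5, the 14 genes kept through their cbc counts included. Without these 14 genes, 11 of 14 rose on 2L, 10 of 11 on 2R, 6 of 10 on 3L, 4 of 6 on 3R and 4 of 5 on X. Of all genes tested, between 34.8% (X) and 38.6% (3L) rose on these arms. Most receptor genes were under 1 CPM in control, and of all genes at that level 57.1% rose. Of those with at least 10 counts in both controls, 48.9% rose. The 3 receptor genes that fell lie on 3L (Gr64f and Or67b) and 3R (Or83c). Coordinates are those of the BDGP6 annotation, and all genes are given by their annotated span.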

How the data were processed

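The deposited files held raw counts per gene made by the authors (5 libraries) and, for Pcf11 library 1, a deposited table of reads on each splice junction. Trim Galore, STAR, SAMtools, deepTools, dm6 and BDGP6 are named in the submitters' processing notes. The version of each, and the release of the gene models, is not given in the sources used here. The files have the layout of STAR's gene counter, in which a uniquely mapped read counts when it overlaps 1 gene. The sense column was used, as the kit was directional, and its 4 totals that name no gene were left out. No column of another sample was used (0 columns). Reads on the sense strand assigned to no gene were between 1.35% and 2.86% of uniquely mapped reads.

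Symbols and positions came from a BDGP6 annotation that held 17710 of the 17807 gene identifiers. It may be another release than the one used for counting. The 13960 genes that reached 10 counts in 2 or more of the 5 libraries were fitted with the quasi-likelihood model of edgeR 4.0.16 in R 4.3.3, with TMM scaling and genotype as the only term, which left 2 residual and 9.33 prior degrees of freedom. The common dispersion came to 0.00687. Two-sided tests were used, with Benjamini-Hochberg adjustment over all genes tested and a threshold of 0.05. CPM are TMM-scaled counts per 1000000 reads, with the SD over libraries. The SE of a log2 fold change was derived from the test, as its absolute value divided by the square root of the F statistic. Intervals are 95%, and these and the floor of 3 counts cover counting error only. The scripts were tested on simulated data with known changes.

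Receptor genes named with their values were the 8 highest in control per kilobase and, among those past the threshold, the 8 largest changes in each direction in each comparison with control and the 5 largest between the knockdowns. A few neighbours and receptors of known role (such as Or22a, Gr33a, Gr61a, Gr64a and Gr47b) were added after their values were seen. Partner genes were Orco and the largest changes of each list, with a few added likewise (Ir25a, elav, Galphai and Snmp1 among them). The members and lists, and the groups of receptors by sense organ, were chosen with earlier results of these data known. Replicate numbers were not taken to pair libraries. Libraries of a group differed by more than sampling noise (chi-square per degree of freedom 48.2 in control and 7.19 in cbc knockdown). Alternatives were RLE scaling, library totals, other filters, DESeq2 1.42.0, counts of both strands, fits of 2 groups, replicate blocks and leaving out each library.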

Additional observations from a re-analysis of the deposited data

Results flagged for a closer look

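Reads on the strand opposite to the receptor genes were outside the comparisons above, and some were above the level in control. Summed over the 120 receptor genes they came to 185 and 212 CPM in cbc knockdown and 202 CPM in the Pcf11 library, against 76.1 and 74.3 CPM in control. Single genes were singled out where the antisense level was at least 5 CPM and more than 2 times the control mean. Or67b, which CG3335 and Cyp40 overlap on the opposite strand, had 77.4 antisense CPM in the Pcf11 library, against 29.3 CPM in control. Gr32a, overlapped by CG6230, had 10.5 antisense CPM in cbc knockdown and 32.2 CPM in the Pcf11 library, against 2.73 CPM in control. Or45b, overlapped by asRNA:CR45281, had 23.8 antisense CPM in cbc knockdown and 25.5 CPM in the Pcf11 library, against 6.61 CPM in control. Or83a, overlapped by CG1172, had 17.7 antisense CPM in cbc knockdown and 8.01 CPM in the Pcf11 library, against 0.742 CPM in control.

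In cbc knockdown the antisense reads of Or43b, overlapped by Cul1, reached 10.1 CPM, against 2.38 CPM in control. Gr61a reached 6.43 antisense CPM in cbc knockdown, against 0.798 CPM in control. Gr97a reached 5.44 antisense CPM in cbc knockdown, against 0.0964 CPM in control. In the Pcf11 library Or56a reached 5.54 antisense CPM, against 0.806 CPM in control. No test was made of these antisense levels, and whether they came from transcripts of the overlapping genes was not tested.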

How the results depend on the processing

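Counts of called receptor genes that moved by more than 1.5 times were mostly those from reads of both strands together. These gave 16 Gr and 15 Or genes higher in Pcf11 knockdown (9 of each by the sense strand), 2 Gr genes lower in cbc knockdown (1), 3 Or genes lower in Pcf11 knockdown (1) and 7 receptor genes lower in cbc knockdown than in the Pcf11 library (2). Or genes lower in Pcf11 knockdown numbered 0 with DESeq2 and 3 with library totals. Or genes lower in cbc knockdown numbered 1 with DESeq2 and with library totals, and between 1 and 2 when each library was left out. The count of receptor genes lower in cbc knockdown than in the Pcf11 library was between 1 and 2 in the same way, and that of Or and Gr genes higher in cbc knockdown between 24 and 25 and between 22 and 25. Partner genes lower in cbc knockdown than in the Pcf11 library numbered 15 with RLE scaling, 3 with library totals, 13 with 2 groups fitted, between 9 and 11 when each library was left out, and 8 otherwise. All genes lower in that comparison numbered 2452 with library totals (4153). With library totals the all-gene median of log2 fold changes was 0.23 in cbc knockdown and -0.35 in Pcf11 knockdown.

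The sign reversed with reads of both strands for Gr32a (0.71 in cbc knockdown, 1.46 in Pcf11 knockdown, -0.75 between them), Or56a (1.45 in Pcf11 knockdown, -0.33 between the knockdowns) and Or67b (0.63 in Pcf11 knockdown, -1.57 between them), and the fall of Gr59f in Pcf11 knockdown did not pass with these reads (-0.35). The other reversals were in values that had not passed the test. Gr32a in cbc knockdown was 0.24 with library totals, and -0.02 to 0.01 without each library in turn, the upper value without control library 2. Or56a in Pcf11 knockdown was 0.12 with DESeq2 and with RLE scaling, -0.11 to 0.06 without each library (0.06 without control library 1), 0.00 with the replicate block and 0.04 with its crossed form. Leaving out each library gave -0.57 to 0.18 for Gr77a and -0.92 to 0.18 for Or22b in Pcf11 knockdown, both 0.18 without control library 2. Between the knockdowns, Or43b was 0.38 with library totals and Or67b ran from -0.16 without cbc library 2 to 0.58 without cbc library 1. The fall of Gr39b in Pcf11 knockdown was lost with RLE scaling and DESeq2 (-0.55 each) and with the replicate block (-0.51). The cause was not tested for any of these.

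Replicate numbers were not taken to pair the libraries. The correlation of same-numbered deviations of control and cbc libraries was -0.111 (2 pairs). So few libraries cannot show whether those of the same number shared a batch. With the number as a block, 24 Or and 25 Gr genes were higher in cbc knockdown and 7 of each in Pcf11 knockdown, and the block changed the calls of Gr39b and Gr59d among the named receptors in Pcf11 knockdown and of Gr39b in cbc knockdown. The crossed pairing, added after seeing the data, gave 49 receptor genes higher and 3 lower in cbc knockdown, and 16 higher and 4 lower in Pcf11 knockdown. Depth limits the weak genes most, as 3 reads stood for up to 0.136 CPM in the cbc libraries, and the Pcf11 comparison has no replicate of its own.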
